A study of Mus musculus with 10 samples.

Results

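The genes described here are the autosomal genes of the mouse that span at least 450 kb, and the question was how much of their RNA was read from introns and how much from exons in embryonic fibroblasts. They were taken from the deposited gene table by position alone: every gene on chromosomes 1 to 19 whose end lies 450 kb or more beyond its start, without 6 genes left out by name (Sox5, Sox6 and members of the Fgf, Col, Adamts, Tgfbr and Ltbp families). This left 274 genes of the 52550 in the table, or 0.567% of its autosomal genes. The RNA came from primary fibroblasts (MEFs, connective tissue cells in culture) of male and female C57BL/6 embryos at embryonic day 14, at passage 3. There were 5 libraries per sex, numbered in their titles, made with strand information from total RNA after removal of ribosomal RNA. No mutant, transgene or treatment was involved, and sex was the factor by which the libraries differed. The labels are silent on separate embryos or cultures, so p-values here measure only how these samples spread, and that spread may be technical.

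A gene is copied by RNA polymerase II into a precursor RNA that holds both exons and introns, and the spliceosome removes the introns mostly while copying goes on. Reads from introns therefore come largely from precursor RNA and removed introns that still await breakdown, while reads from exons come from precursor and mature RNA together, and reads across an exon-exon junction only from spliced RNA. Because the polymerase needs many hours to cross the longest genes, these carry long stretches of precursor RNA. Many of them code for adhesion molecules, receptors and channels of neurons, and several lie at common fragile sites, where chromosomes break under replication stress.

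Of the 274 genes, 200 had a promoter entry in RefSeq (build GRCm38.p6) on the same chromosome and strand. Shown here are the 250 bases before the RefSeq start for 2 genes with abundant spliced RNA and 2 without, since the presence of CG dinucleotides before a start is a well-known feature of broadly active promoters. They are, among the genes whose RefSeq start lay within 30 bases of the start in the deposited table, the 2 with the highest exon level (Lpp and Rbms3) and the 2 longest with under 1 exon-exon read per library (Lsamp and Ctnna3). The windows are chr16:24393100-24393349 on the plus strand for Lpp, chr9:117629914-117630163 on the minus strand for Rbms3, chr16:39984114-39984363 on the plus strand for Lsamp and chr10:63429848-63430097 on the plus strand for Ctnna3. Capitals mark CG, which reads the same on both strands.
Lpp: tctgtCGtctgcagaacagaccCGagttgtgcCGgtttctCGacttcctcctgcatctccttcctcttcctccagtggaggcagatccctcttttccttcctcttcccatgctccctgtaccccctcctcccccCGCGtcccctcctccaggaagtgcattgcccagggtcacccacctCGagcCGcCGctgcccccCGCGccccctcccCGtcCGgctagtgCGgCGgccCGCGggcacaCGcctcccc
Rbms3: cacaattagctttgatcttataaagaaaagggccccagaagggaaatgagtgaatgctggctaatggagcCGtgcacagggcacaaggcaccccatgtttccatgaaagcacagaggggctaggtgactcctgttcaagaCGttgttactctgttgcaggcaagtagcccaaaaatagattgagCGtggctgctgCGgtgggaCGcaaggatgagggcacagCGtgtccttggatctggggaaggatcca
Lsamp: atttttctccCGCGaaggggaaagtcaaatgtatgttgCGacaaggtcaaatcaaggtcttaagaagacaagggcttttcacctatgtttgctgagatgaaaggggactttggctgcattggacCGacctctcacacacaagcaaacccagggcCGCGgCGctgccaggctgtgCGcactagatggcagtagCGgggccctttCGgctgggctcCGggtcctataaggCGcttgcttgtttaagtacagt
Ctnna3: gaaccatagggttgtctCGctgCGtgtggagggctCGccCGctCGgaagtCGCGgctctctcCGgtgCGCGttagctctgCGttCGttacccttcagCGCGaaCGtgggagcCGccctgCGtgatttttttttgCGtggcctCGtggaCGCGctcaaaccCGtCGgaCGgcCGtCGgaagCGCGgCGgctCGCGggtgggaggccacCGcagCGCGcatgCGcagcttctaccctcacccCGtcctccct
The window of Lpp holds 18 CG and that of Rbms3 6, against 12 for Lsamp and 36 for Ctnna3, so these 4 promoters are not ordered by the amount of spliced RNA. Over all matched genes, of which 43 have their nearest RefSeq start more than 1000 bases from the start in the table, the median was 17.0 CG for the 101 genes with a mean of at least 10 exon-exon reads per library, 12.5 for the 54 with 1 to 10, and 11 for the 45 with fewer than 1. At least 10 CG were held by 64.4%, 61.1% and 51.1% of these groups, against 37.8% of all 32851 promoters in the table, whose median was 6.0. With the 157 genes whose RefSeq start lies within 1000 bases, a limit set after the data were seen, the medians were 19, 14 and 11.5 CG for 73, 46 and 38 genes. A window with at least 1 CG was found for 92.1% of all promoters. These are counts of letters in a window and were not tested.

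The libraries held between 30662616 and 45859721 unique gene reads. The labels of the sexes fitted the sex-linked genes: all 4 Y-linked genes examined were called higher in males and Xist higher in females by the quasi-likelihood test of edgeR. Fibroblast markers were abundant, their summed level lying between 25085 and 31715 CPM (counts scaled to library size with TMM factors) in males and between 24837 and 33040 in females. Neural and glial markers, which bear on the many neuronal genes among the very long ones, summed to between 165 and 223 CPM in males and between 160 and 222 in females; Nes alone accounted for 122 ± 21.4 CPM of the male sum and for 129 ± 23.8 CPM of the female sum (SD, n = 5), while Dcx, Snap25, Elavl3 and Gfap each had means under 1 CPM. No tested gene of the 6 marker lists was called between the sexes on gene reads, beside 0.0904% of all 16602 genes tested. In these bulk samples, fewer cells of a type and less RNA per cell cannot be told apart.

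The very long genes had a median span of 609 kb, 53 of them spanned 1000 kb or more, and exons made up a median of 1.2% of the span. Of the 274, 263 were protein coding, and every autosome carried some, from 6 on chromosome 19 to 23 on chromosome 1. They held 1.48% of all unique gene reads, 3.01% of the intron reads and 0.936% of the exon reads. The 10 most abundant held 36.8% of the reads of all 274.

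Nearly all of them had reads, but fewer than 50% gave spliced RNA in quantity. The filter on low counts was passed by 270 (98.5%) on gene reads and 269 (98.2%) on intron reads, but by 195 (71.2%) on exon reads, and 132 (48.2%) had a mean of at least 10 exon-exon reads per library. A further 78 had 1 to 10 such reads, 33 had some but fewer than 1, and 31 had 0 in every library. Among the 20412 other autosomal genes that code for protein, 66.8% passed on gene reads, 57.1% on intron reads and 60.5% on exon reads, and 50.3% had 10 exon-exon reads. The share of very long genes with spliced RNA was thus close to that of other protein-coding genes, while the share with intron reads was higher. Among other autosomal genes of all kinds, 45.2% of those of 10 to 50 kb had 10 exon-exon reads. It was 58.2% for 50 to 150 kb and 60.7% for 150 to 450 kb, so the very long genes, at 48.2%, lay below these longer classes. The limit of 10 exon-exon reads is likewise on counts. The share passing on intron reads was higher in each longer class, from 9.21% of genes under 10 kb through 55.1%, 77.4% and 93.9% for the classes with limits at 10, 50, 150 and 450 kb. The filter is on counts and not on density, so at a like intron density a longer gene passes more readily. The higher shares are therefore no measure of how active the longer genes are. Genes are not replicates, and these shares were not tested.

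**Figure D1:**
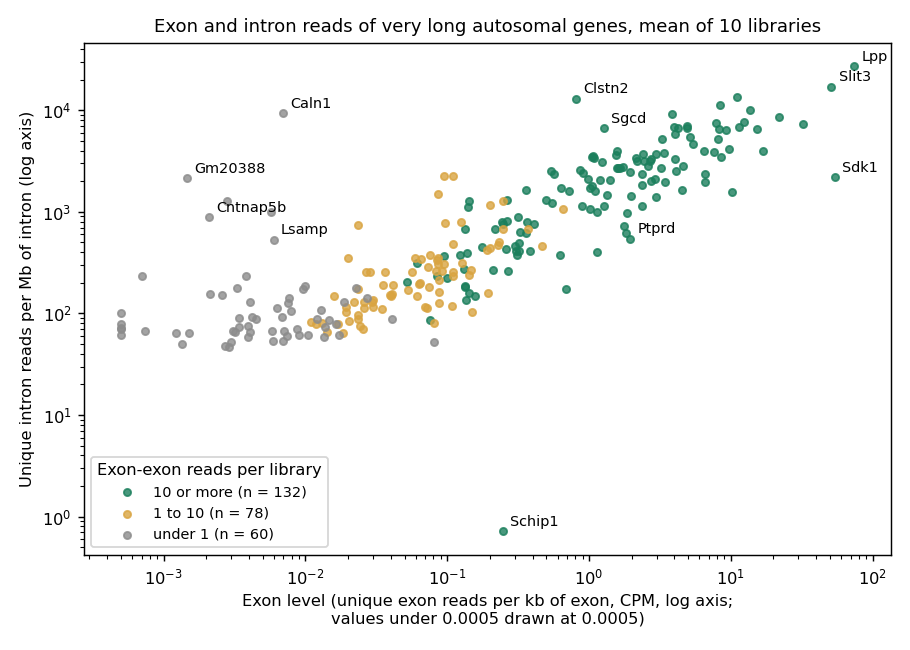
Each point is 1 very long gene with a mean of at least 1 unique gene read; the x axis gives its exon level (CPM of unique exon reads per kb of exon) and the y axis its unique intron reads per Mb of intron, both as means of 10 libraries on log axes, and colours give the mean number of exon-exon reads per library. Genes with spliced RNA rise together on both axes. Most genes without it lie at low intron densities, with a median of 82.4 intron reads per Mb, and Caln1 stands far above them.

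The plot of exon level against intron density shows that the exon level (CPM of unique exon reads per kb of exon) covers several orders of magnitude. Lpp, a zyxin-family scaffold protein of focal adhesions, had the highest exon level. Its exon level was 72.0, 73.9, 77.7, 80.7 and 71.3 in male replicates 1 to 5 and 71.6, 70.6, 73.1, 79.3 and 74.6 in female replicates 1 to 5. The libraries of both sexes cover the same range, and the sex difference in exon reads was -0.02 ± 0.05 (log2, female minus male ± SE; edgeR adjusted p = 0.966). The intron share of Lpp, the percent of its unique gene reads that lie in introns, was 32.0, 22.2, 26.5, 17.2 and 25.5% in the males and 23.5, 21.6, 35.8, 23.5 and 27.5% in the females. So the exon level of Lpp differed little between libraries, whereas its intron share was more than doubled in female replicate 3 relative to male replicate 4.

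Sdk1 and Slit3 followed. Sdk1, an immunoglobulin-family adhesion molecule best known from synapses of the retina, had exon levels of 41.4, 51.1, 47.8, 56.7 and 53.5 in males and of 57.1, 79.2, 52.0, 51.2 and 54.4 in females. Female replicate 2 lies above all other libraries, and the other 9 overlap between the sexes. Its intron share was low, with 16.5, 8.58, 8.81, 5.14 and 6.09% in males and 7.26, 6.80, 11.5, 7.05 and 8.67% in females. Slit3, a secreted guidance cue that binds Robo receptors, had exon levels of 61.7, 47.2, 39.6, 49.0 and 38.9 in males and of 56.0, 81.3, 42.6, 49.1 and 45.9 in females. Its intron share was 53.5, 42.5, 45.8, 33.6 and 43.9% in males and 41.5, 39.1, 58.3, 41.2 and 49.3% in females. Sdk1 and Slit3 thus had like exon levels but intron shares several-fold apart, 8.63% ± 3.26 and 44.9% ± 7.21 (SD, n = 10). Exon-exon reads were far fewer for Sdk1, with a mean of 411 per library against 4975 for Slit3. A like exon level was therefore not a like number of reads from spliced RNA.

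The next genes by exon level were Snd1, a staphylococcal nuclease domain protein, at 32.1, Utrn, the dystrophin relative utrophin, at 21.9, and Zfhx3, a zinc finger homeobox factor, at 17.0. Dock1, an activator of the GTPase Rac, stood at 15.2, Rbms3, an RNA-binding protein, at 13.7, and Exoc4, a subunit of the exocyst, at 12.4. Ptprg, a receptor-type tyrosine phosphatase, stood at 11.4, and Chd1, a chromatin remodeller, at 10.2. Among these 11 genes the mean intron share ran from 8.63% (Sdk1) to 64.6% (Rbms3), as the plot of their intron share by library shows. The table's span of Chd1, 1690 kb, differs from that in GENCODE M21, so its intron length is uncertain; 246 of the 274 genes have the GENCODE start and end.

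**Figure D2:**
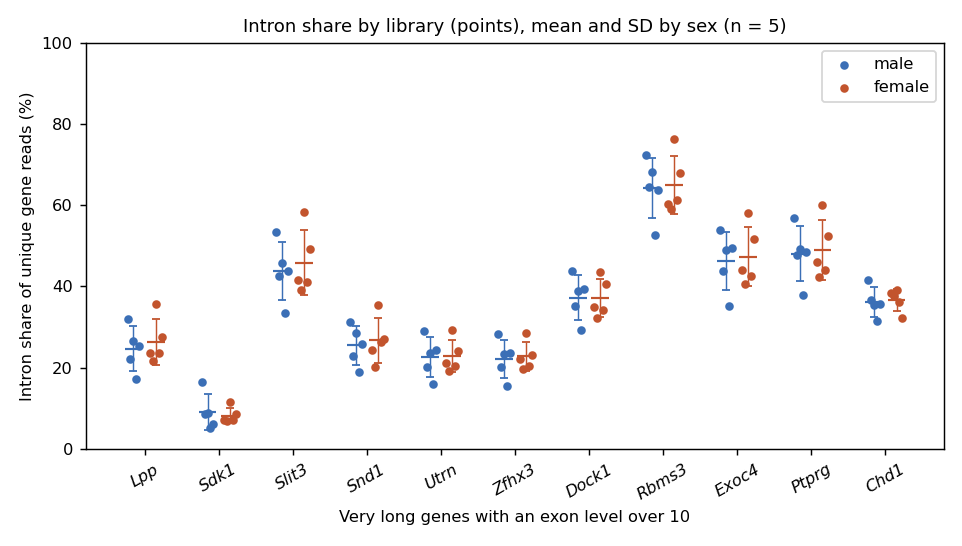
Intron share of unique gene reads (%) of 11 very long genes with an exon level over 10; points are libraries, horizontal lines the mean and bars the SD of 5 libraries of each sex. The sexes overlap for every gene, and shares run from 5.14% (Sdk1, male replicate 4) to 76.2% (Rbms3, female replicate 3).

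The genes were then counted by role. The lists were drawn up from textbook roles with earlier results of these data known. Of 52 synaptic and neural adhesion genes, 23 had at least 10 exon-exon reads and 15 had fewer than 1. Next to Sdk1 and Slit3 the highest exon level was that of Pcdh9, a protocadherin, at 6.44 ± 0.416 (SD, n = 10 libraries) with an intron share of 67.1% ± 4.72. Those with fewer than 1 exon-exon read included the neuronal adhesion genes Cntnap2, Lsamp, Nlgn1, Nrxn3 and Cntn5. Of 25 ion channel and neurotransmitter receptor genes, 6 had at least 10 exon-exon reads. The highest, Cacna1c, the pore subunit of an L-type calcium channel, had an exon level of 3.86 and an intron share of 68.9% ± 4.52, and Gabrb1, a subunit of the GABA-A receptor, 0.91 and 69.1% ± 5.30. Kcnq5, a voltage-gated potassium channel, followed with an exon level of 0.496.

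Other lists hold genes of general cell functions. Of 36 genes for scaffolds, kinases and regulators of small GTPases, 26 had at least 10 exon-exon reads and 1 had fewer than 1. Utrn led this list, followed by Dock1 and by Diaph3, a formin that builds actin filaments, at 9.73. Of 16 transcription and chromatin regulators, 12 had at least 10, among them Foxp1, a forkhead factor, with an exon level of 8.19 and an intron share of 46.5% ± 4.67. Of 32 genes of common fragile sites and of trafficking, 18 had at least 10. Among these, Fhit, a diadenosine triphosphate hydrolase at a fragile site, had 3.3 exon-exon reads per library and an intron share of 98.6% ± 0.831. These counts describe the lists and were not tested.

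The 6 receptor-type tyrosine phosphatases show the range within 1 family. Ptprg, Ptprk, Ptprm and Ptprd had exon levels of 11.4, 8.19, 7.83 and 1.94. Ptprt and Ptprn2 had levels of 0.0717 and 0.012, the latter with a mean of 0.8 exon-exon reads. Intron shares were higher at lower exon levels for Ptprg, Ptprm, Ptprt and Ptprn2 (48.5%, 65.2%, 79.2% and 94.3%), but not for Ptprk (47.7%) or for Ptprd (41.4%), at 2271 kb one of the 5 longest genes. Exon levels of Ptprk and Ptprm did not differ beyond their spread, with 8.73 ± 1.08 and 7.87 ± 0.448 in males and 7.65 ± 1.05 and 7.78 ± 0.383 in females (SD, n = 5).

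Very long genes with almost no spliced RNA still had intron reads, mostly at a low density that varied from gene to gene. The 60 genes with fewer than 1 exon-exon read and at least 1 gene read had a median of 82.4 intron reads per Mb of intron per library, with quartiles of 63.8 and 142, and 41 of the 60 lay under 120. The 543 other autosomal genes of the same kind with at least 100 kb of intron had a median of 89.6, and 341 of them lay under 120. The low density was thus not particular to the very long genes. The density in genes with at least 10 exon-exon reads was far higher, with a median of 1994 per Mb. Cntnap2, a neurexin-family adhesion gene and one of the 5 longest at 2245 kb, is an example of the low density, with 67.0 intron reads per Mb, and its intron reads of 3.24, 4.06, 4.35, 3.44 and 4.61 CPM in males and 3.55, 3.31, 4.71, 4.41 and 3.59 CPM in females differed little. Scaled to 10000000 unique gene reads per library, the median density of the group was 21.7 ± 1.87 per Mb in males and 21.2 ± 1.84 in females (SD, n = 5; two-sided exact permutation p = 0.698). What these reads stand for was not tested.

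A few genes without spliced RNA stood well above that density. Caln1, a calcium-binding protein gene, had 9321 intron reads per Mb and 0 exon-exon reads in all 10 libraries. Its intron reads came to 41.2, 107, 127, 112 and 115 CPM in males and 113, 152, 105, 139 and 139 CPM in females, with male replicate 1 below all the others. Gm20388, a predicted gene of 4435 kb and the longest, had 2148 per Mb; 207 other genes of the table lie inside it, with 54436 unique reads per library of their own, and 38.4% of its total reads were unique. The inner genes thus had more unique reads than the 9518 intron reads of Gm20388, so most of those reads were not also in its intron count. Gm26573 and Gm26561 had 1290 and 1004 per Mb with 24 and 8 genes inside them. Those inner genes had 34.6 and 12342 unique reads per library, beside 1120 and 516 intron reads of Gm26573 and Gm26561 themselves. Cntnap5b had 884 and Lsamp 532 per Mb, and the genes inside them had 0 unique reads. Lsamp, a GPI-anchored adhesion molecule of the limbic system whose promoter is shown above, had intron reads of 15.3, 23.4, 30.9, 25.2 and 35.3 CPM in males and 38.9, 51.9, 28.0, 31.0 and 25.2 CPM in females, an overlapping range.

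Most very long genes hold other genes. Other table genes lay inside 257 of the 274, and of the 1538 that lay inside a very long gene other than Gm20388, 45 (2.93%) had a mean of at least 1 unique read. For inner protein-coding genes the share was 35.1%, against 81.8% of other autosomal protein-coding genes, and for inner processed pseudogenes 0.697% against 22.3%. Schip1, which codes for a schwannomin-interacting protein and was singled out after its values were seen, is the reverse case. It had 14.5 exon-exon reads but 0.4 intron reads per library, and 0.817% of its total reads were unique. How the counting shared reads between overlapping genes is not given in the sources used here, and its part in these values was not tested.

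Intron reads were next compared with exon reads per length, as the log2 ratio of intron reads per kb of intron to exon reads per kb of exon. The 245 very long genes with a mean of at least 50 unique gene reads had a higher median ratio than the 11404 other autosomal genes measured alike. Those with an exon level of at least 0.1 had a lower median than other genes in the same window of exon level. The medians over all measured genes were -4.07 and -4.61 as means over the 10 libraries, a difference of 0.53 ± 0.12 (log2, SD, n = 10), positive in 10 of 10 libraries. Intron reads count towards the limit of 50 gene reads, so a gene can be measured through its introns alone: 114 of the 245 very long genes (46.5%) had fewer than 10 exon-exon reads, against 1537 of the 11404 others (13.5%). The difference is therefore given as a description, with no test.

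The difference did not stay positive when genes were chosen by exon or exon-exon reads. With a mean of at least 50 unique exon reads in place of 50 gene reads it was -0.17 ± 0.15 (SD, n = 10; 124 very long genes and 10294 others; negative in 8 of 10 libraries; two-sided exact sign-flip permutation p = 0.0117). This test compares libraries and treats the genes as given. Among genes with at least 10 exon-exon reads, a limit set after the data were seen, the very long genes had a median of -4.87 and the others -4.82, a difference of -0.05 ± 0.14 (SD, n = 10; exact sign-flip permutation p = 0.299). Within windows of exon level, also set after the data were seen, the very long genes had the lower median in 10 of 10 libraries. The difference was -0.88 ± 0.16 for exon levels of 0.1 to 1 (67 very long genes and 1973 others). In this window a gene can still reach 50 gene reads largely through its introns, so the value is given with no test. It was -0.70 ± 0.15 for 1 to 10 (68 genes) and -1.02 ± 0.15 for 10 and over (12 genes). Each of these 2 had an exact sign-flip permutation p = 0.00195, the smallest that 10 libraries allow. With at least 50 exon reads the lowest window gave -0.48 ± 0.18 (41 very long genes and 1340 others), also negative in 10 of 10 libraries (exact sign-flip permutation p = 0.00195). The other windows then gave -0.70 and -1.02. The 98 measured genes with an exon level under 0.1 were not compared at a like level. Against the next shorter genes, of 150 to 450 kb, the difference was 0.67 ± 0.07 over all measured genes and 0.14 ± 0.08 over those with 10 exon-exon reads (positive in 9 of 10 libraries; exact sign-flip permutation p = 0.00391). Across the 132 very long genes with spliced RNA, the ratio was lower at higher exon level (Spearman rho -0.65) and hardly varied with span (rho 0.06), while intron density itself was higher at higher exon level (rho 0.83). These correlations are across genes of the same libraries and carry no p. The exon count enters both the ratio and the exon level, but not the intron density or the span.

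**Figure D3:**
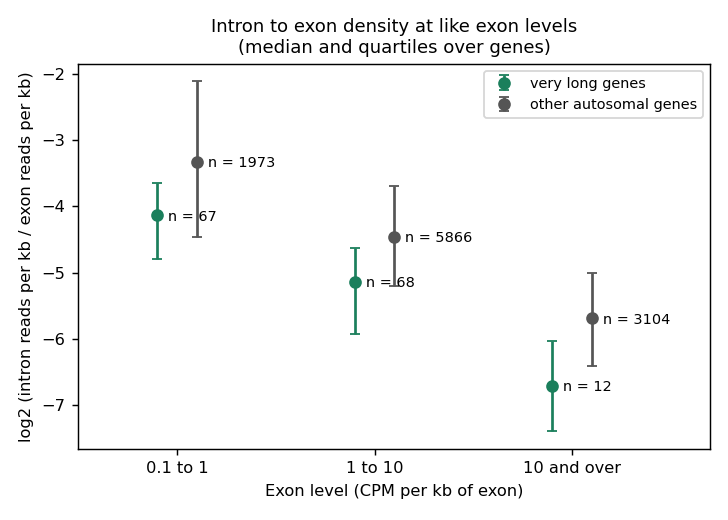
log2 ratio of intron reads per kb to exon reads per kb, as median and quartiles over genes in 3 windows of exon level, for very long genes (green) and other autosomal genes (grey). In each window the median of the very long genes lies below that of the others: -4.13 against -3.33, -5.14 against -4.46 and -6.71 against -5.69.

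The extremes of this ratio among very long genes show what it captures. The lowest among those with at least 100 unique gene reads was Sdk1 at -9.92, with 411 exon-exon reads, followed by Chd1, Snd1 and Zfhx3. The value of Chd1 rests on the table's span and is as uncertain as its intron length. Slc7a11, the cystine transporter subunit, stood at -7.22 with 37.2 exon-exon reads and an exon level of 0.688. The highest were Caln1 at 5.12, Gm20388 at 3.83, Cntnap5b at 2.74 and Gm26573 at 2.56, in which intron reads were denser than exon reads, and none of these had as many as 1 exon-exon read. With total in place of unique reads, Gm20388 turned to -6.79. Among genes with spliced RNA, Clstn2, a calsyntenin singled out after its values were seen, stood highest at -1.32, with an intron share of 97.4% ± 1.19, and Sgcd, a subunit of the sarcoglycan complex also named after its values were seen, at -2.86 with 94.7% ± 1.01 (SD, n = 10).

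The intron share of very long genes varied from library to library, together with that of other genes. Summed over the 245 measured genes it was 59.1, 51.1, 55.6, 43.3 and 52.5% in male replicates 1 to 5 and 49.9, 48.0, 62.1, 50.5 and 55.0% in female replicates 1 to 5. Female replicate 3 was the highest and male replicate 4 the lowest, and the sexes overlapped: the means were 52.3% ± 5.92 in males and 53.1% ± 5.64 in females, a difference of 0.762 percentage points (SD, n = 5; two-sided exact permutation p = 0.857). Without male replicate 4 or without female replicate 3 the difference turned to -1.49 in each case. The intron reads of all 274 genes ranged over the libraries from 5604 to 10892 CPM, 1.94-fold, while their exon reads ranged from 6553 to 7451 CPM, 1.14-fold, and their exon-exon reads from 1355 to 1555 CPM. The swing between libraries thus lay in the intron reads.

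**Figure D4:**
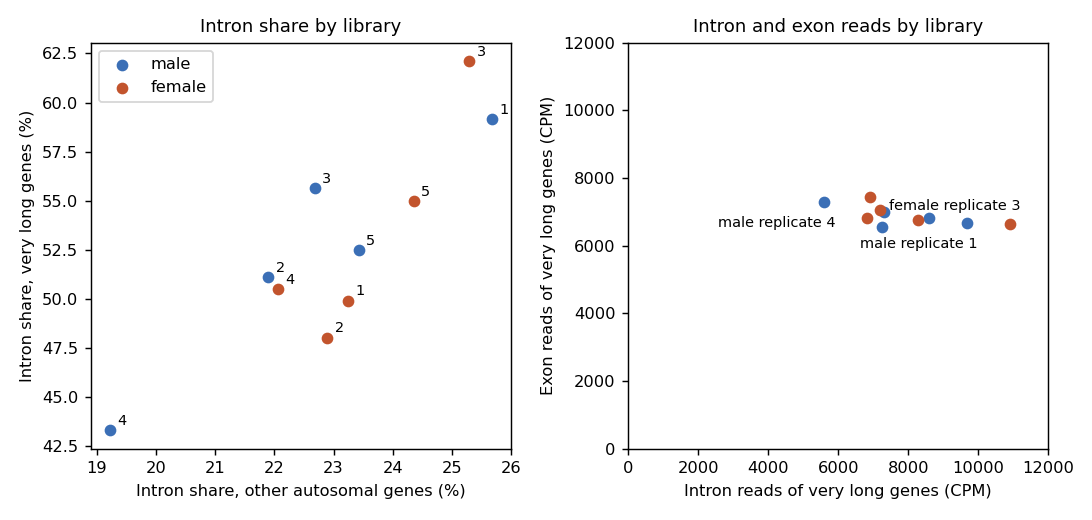
Left, intron share of very long genes against that of other autosomal genes (%), 1 point per library, numbered by replicate. Right, summed intron and exon reads of very long genes (CPM) in the same libraries. Intron shares move together between 43.3% and 62.1%, and exon reads stay between 6553 and 7451 CPM while intron reads run from 5604 to 10892.

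The share of the very long genes followed that of other autosomal genes, which ran from 19.2 to 25.7%. Pearson's r was 0.877 (permutation p = 0.00124, adjusted p = 0.00744 over 6 relations) and Spearman's rho 0.709 (permutation p = 0.0272, adjusted p = 0.0816). Without male replicates 4 and 1, the libraries farthest from the median, r was 0.749, and with each sex centred on its mean it was 0.895. The share of reads on Malat1 and Neat1, noncoding RNAs that stay in the nucleus, ran from 0.282% to 0.509% and gave r = 0.830 (permutation p = 0.0036, adjusted p = 0.0108; rho 0.721, permutation p = 0.0231, adjusted p = 0.0816), and r = 0.661 without those libraries. The other 4 relations did not pass: r was 0.197 for unique gene reads (adjusted permutation p = 0.674), -0.395 for the share on the ribosomal RNA locus Gm26917 (0.383), 0.566 for the unique share of total reads (0.169) and -0.150 for the exon-exon share of exon reads of other genes (0.674). Within a sex there are 5 libraries, too few for a correlation. The part of nuclear RNA in this variation was not tested.

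Most single genes moved with this pattern. Of the 245 measured genes, 218 had a log2 ratio of intron to exon density that correlated positively over the libraries with the median of the other autosomal genes, 144 of them with r over 0.5 (median r 0.630). Of the 131 measured genes with at least 10 exon-exon reads, 129 did so (median r 0.843), and female replicate 3 was the highest library for 92 and male replicate 4 the lowest for 91. These 2 libraries were also the extremes of the summed share, to which the same genes contribute. Matching counts for single genes of other lengths are not given, so whether very long genes follow the pattern more often is not known. The highest library exceeded the lowest by a median of 1.58-fold in exon reads and 2.19-fold in intron reads. Utrn, for example, had intron reads of 132, 92.7, 110, 71.3 and 113 CPM in males and 91.5, 81.7, 143, 94.0 and 114 CPM in females, while its exon reads stayed between 323 and 375 CPM. Ptprk had an intron share of 59.9% in female replicate 3 against 42.7 to 47.1% in the other females.

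Clstn2 did not follow the pattern. Its ratio correlated with that of other genes at r = -0.630, and Grip1 was the other negative gene, at -0.024. The ratio of Clstn2 was -2.42, -1.38, -0.56, -1.24 and -1.88 in males and -0.67, -0.49, -1.87, -0.84 and -1.88 in females, so that female replicate 2 and male replicate 3 were highest. Gphn, whose ratio correlated with that of other genes at r = 0.614, had wide differences in intron reads. This gene for gephyrin, which anchors inhibitory receptors and also takes part in molybdenum cofactor synthesis, had intron reads of 83.2, 71.8, 60.6, 22.7 and 33.8 CPM in males and 28.5, 30.4, 45.6, 31.7 and 36.3 CPM in females. Male replicates 1 to 3 lay above every female library and the other males among or below them, while its exon reads ran only from 9.10 to 12.7 CPM in all 10 libraries.

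The swing between libraries was wider in longer genes, but over all measured genes it hardly differed between the 2 longest classes. Over the libraries, the median log2 ratio of genes with 10 exon-exon reads ranged by 0.73 for genes under 10 kb, by 0.80, 0.90 and 1.00 for the classes up to 450 kb, and by 1.13 for the very long genes. The plot of length classes shows that male replicate 4 was the lowest library in each class, and that female replicate 3 was the highest in the very long genes but second to male replicate 1 in genes under 150 kb. The medians do not fall or rise steadily with length, being -4.61, -4.75, -5.0, -5.01 and -4.87 from the shortest class to the longest. Over all measured genes, the ranges were 0.65, 0.81, 0.89, 1.00 and 1.03 from the shortest class to the longest. With 10 exon-exon reads, the median of the very long genes rests on 132 genes, against 782 in the next shorter class. The differences in range between classes were not tested.

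**Figure D5:**
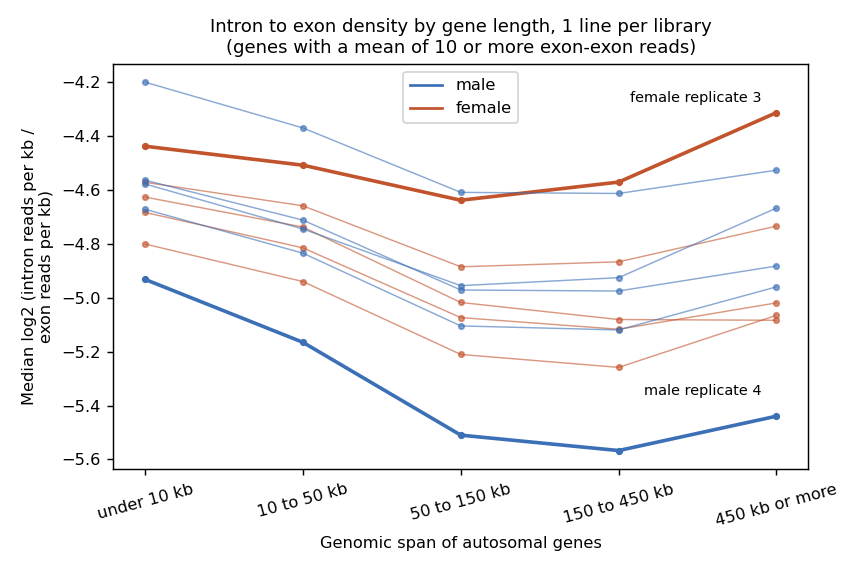
Median over genes of the log2 ratio of intron reads per kb to exon reads per kb (y axis) in 5 classes of genomic span (x axis), for autosomal genes with a mean of at least 10 exon-exon reads, 1 line per library. The lines fan out from a range of 0.73 under 10 kb to 1.13 at 450 kb or more, with male replicate 4 lowest throughout.

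None of the very long genes was called between the sexes by edgeR in any of 4 tests. On gene reads 0 of 270 passed an adjusted p of 0.05, beside 0.0904% of all 16602 genes tested. On exon reads it was 0 of 195 (background 0.118%), on intron reads 0 of 269 (0.0983%), and on intron reads relative to exon reads 0 of 194 (0.0342%). At an unadjusted p under 0.05 there were 12, 20, 15 and 3 genes, or 4.44%, 10.3%, 5.58% and 1.55% of those tested, beside 5.55%, 7.43%, 4.37% and 3.72% of all genes tested. DESeq2 called 0 on gene reads (background 0.422%), 2 on exon reads (Cdh13 and Zbtb20; background 0.652%) and 0 on intron reads (background 0.142%), and limma-voom 0 on the ratio of intron to exon reads. In no gene did the libraries of the sexes fail to overlap in gene reads, against 0.976% of all genes tested. The median difference over the very long genes was 0.02 (log2, female minus male) on gene reads, with quartiles of -0.09 and 0.11, beside a median of 0.00 over all genes tested.

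The genes nearest the threshold on exon reads had lower means in females, without passing it. Zbtb20, a zinc finger repressor, had exon reads of 82.4, 95.7, 96.7, 89.1 and 84.2 CPM in males and 76.8, 70.9, 74.96, 82.1 and 68.6 CPM in females, so that the lowest male library lay just above the highest female one. On gene reads the sexes overlap for Zbtb20, and the share of all genes that fail to overlap on exon reads is not given here. The difference of Zbtb20 on exon reads was -0.26 ± 0.06 (log2, SE; edgeR adjusted p = 0.246). Cdh13, an adhesion molecule of the cadherin family held by a lipid anchor, had 15.6, 22.2, 27.7, 18.9 and 23.5 CPM in males and 13.7, 16.2, 14.8, 15.4 and 10.9 CPM in females, a difference of -0.59 ± 0.14 (edgeR adjusted p = 0.282). Edil3, a secreted integrin ligand, had 36.4, 37.8, 35.8, 33.2 and 37.0 CPM in males and 35.2, 30.4, 23.1, 28.1 and 25.7 CPM in females, a difference of -0.34 ± 0.09 (edgeR adjusted p = 0.313). The libraries of the sexes overlap for Cdh13 and for Edil3. In the other direction, Rbms3 and Dock1 differed by 0.14 ± 0.05 and 0.12 ± 0.04 on exon reads (edgeR adjusted p = 0.432 and 0.434).

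On intron reads the smallest p-values were those of Thsd4 and Foxp2. Thsd4, a thrombospondin-repeat protein of microfibrils, had 3.89, 2.86, 2.85, 2.92 and 2.53 CPM in males and 3.98, 4.90, 5.64, 3.14 and 4.22 CPM in females, a difference of 0.51 ± 0.15 (edgeR adjusted p = 0.515). Foxp2, a forkhead factor, had 14.2, 10.3, 17.1, 8.02 and 15.3 CPM in males and 8.10, 7.06, 12.7, 8.45 and 10.1 CPM in females, a difference of -0.51 ± 0.14 (edgeR adjusted p = 0.551). The sexes overlap in both. For the ratio of intron to exon reads, Dnm3, a dynamin, had the smallest p; its intron share was 78.5% ± 3.29 in males and 82.4% ± 0.916 in females (SD, n = 5), and the difference in the log2 ratio was 0.31 ± 0.12 (edgeR adjusted p = 1.00). Gphn differed by -0.68 ± 0.27 (edgeR adjusted p = 1.00), with the 3 high male libraries given above.

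One very long gene stands at a false discovery rate under 0.05 in the authors' deposited table: Gm37388, a predicted gene, with a signed fold of 354 and a false discovery rate of 0.00367. It had 0 unique reads in all 10 libraries, and its 228 total reads all came from 1 female library. It was therefore not among the genes tested on unique reads.

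Genes that act on the making of long RNAs did not pass the test either. Of 54 genes for transcription elongation and long RNA synthesis, 53 were tested on gene reads and 0 were called by edgeR. Among them are the elongation kinases Cdk9 and Cdk12, the topoisomerases Top1 and Top2b and the RNA-binding protein Sfpq. Only 0.0904% of all genes tested were called, so 0 calls does not set this list apart. The differences of the 53 genes were positive for 45 and negative for 8, with a median of 0.03, beside 52.1% positive and a median of 0.00 over all genes tested. Sfpq, which is known for its part in the expression of long genes, had 182 ± 4.62 CPM in the males against 190 ± 14.2 CPM in the females (SD, n = 5). Of 22 tested genes of nuclear RNA decay and intron turnover, 0 were called (background 0.0904%), with 12 positive and 10 negative.

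The genes next to the limit of 450 kb are given as a description. Just inside it, Cadps, an activator of vesicle release, Exoc6b, an exocyst subunit, and Cacna1d, an L-type calcium channel, span 451, 451 and 452 kb, with exon levels of 0.0142, 5.16 and 0.0192 and intron shares of 83.6%, 51.8% and 84.1%. Just outside, Zfpm2, a cofactor of GATA proteins, Tbc1d5, a GTPase-activating protein of trafficking, and Plxna4, a semaphorin receptor, span 449551, 446229 and 443925 bases, with exon levels of 5.37, 1.94 and 2.30 and intron shares of 77.9%, 56.3% and 34.3%.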

How the data were processed

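RNA of 5 male and 5 female MEF libraries was analysed, from 1 table of 52550 genes. The table holds whole-number read counts, not normalized, per the file headers, split into unique and total reads and into gene (exon and intron), exon, intron and exon-exon reads. Unique gene reads equal unique exon plus unique intron reads for every gene. Beside these stand results of the authors' own test of the sexes, as deposited: p-values, false discovery rates and a signed fold, treated here as a score. Per the submitters' processing notes the genome build was mm10. Aligner and counting rules: not given in the sources used here. Starts count from 0 in the table and were converted to count from 1. Another 70 columns with values of single libraries were left unused.

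Counts were tested with edgeR 4.0.16 in R 4.3.3 (filterByExpr with a minimum count of 10, TMM, robust quasi-likelihood fit on sex, two-sided, Benjamini-Hochberg over all genes tested), for gene, exon and intron reads. Intron against exon reads were tested in 1 fit of 20 columns with a term per library, for the interaction of the kind of read with sex; differences are log2, female minus male, and for that fit refer to intron relative to exon reads. Standard errors were derived from the difference and its F statistic. Intron shares are percents of unique gene reads; summed shares use genes with a mean of at least 50 unique gene reads. Density ratios add 0.5 reads to each count and use genes with at least 1 kb of intron. CPM and exon levels are scaled to unique gene reads with TMM factors. Exact permutation tests run over libraries, and correlations used 100000 resamples, in Python 3.11.15 with scipy 1.17.1. Smallest possible p-values are 0.00794 for 5 libraries against 5 and 0.00195 for sign flips over 10. The reads carry no molecular identifiers, so they are not independent molecules.

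Alternatives were DESeq2 1.42.0 and its size factors, upper quartile scaling, no filter or stricter filters, limma-voom (limma 3.58.1), total reads, a limit of 600 kb, leaving out genes that hold another gene or the most abundant gene, exon-exon reads as denominator, leaving out each library, and the replicate number as a block. The windows of exon level, the comparison with genes of 150 to 450 kb, the limits of 10 exon-exon or 50 exon reads in library-level results and leaving out Gm20388 and Chd1 were chosen after the data were seen. The edgeR and limma-voom tests were tested on simulated counts. The genes and lists were chosen with earlier results of these data known. Named genes are the 12 with the highest exon level and, in each test, the 3 per direction with the smallest p and at least 100 unique gene reads. The rule adds the 5 highest, 5 lowest and 5 most variable by density ratio, the 5 longest, the 3 on either side of the length limit and up to 3 per role list; not all are described, and 1 of the 12 is not reported here. Other genes given only as members of a list or family illustrate it. Same-numbered libraries of the 2 sexes deviated together with correlations of 0.08, -0.02, -0.00, 0.03 and 0.20, so the numbers were not taken as pairs.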

Additional observations from a re-analysis of the deposited data

Results flagged for a closer look

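Libraries far from the others of their sex were sought in 170 groups of 5 libraries, covering the library measures and the exon level and intron share of the named genes with at least 10 exon-exon reads. There were 8 such libraries, where chance at 1 in 20 gives 8.5. For named genes with fewer exon-exon reads, whose shares near 100% rest on single reads, a further 15 of 60 groups held such a library; they were left out after this was seen.

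The median intron density of genes without spliced RNA was 109 reads per Mb in female replicate 3, the library with the most unique reads, against 76.2 to 78.6 in the other females; scaled to 10000000 unique reads it was 23.8 there and 19.2 to 21.9 in the others. The exon level of Sdk1 was 79.2 in female replicate 2 against 51.2 to 57.1. The exon level of Etl4, a gene for a cytoskeleton-linked protein of the notochord, was 1.36 in male replicate 5 against 1.83 to 1.95 and 2.80 in female replicate 2 against 1.97 to 2.20. That of Gphn was 2.43 in female replicate 1 against 3.18 to 3.39, that of Cacna1c 3.45 in the same library against 3.84 to 3.95, and that of Slc7a11 0.337 in male replicate 5 against 0.691 to 0.782. The intron share of Ptprk was 59.9% in female replicate 3 against 42.7 to 47.1%. What sets these libraries apart was not tested.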

How the results depend on the processing

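The sex difference in intron share was 0.762 percentage points and ran from -1.49 to 2.46 when each library was left out in turn; with a limit of 600 kb it was -0.0618. The higher intron to exon density of very long genes, 0.53 on the log2 scale, lay between 0.244 and 0.712 under alternatives of read type, gene read minimum, length limit, denominator and genes left out (0.516 to 0.558 leaving out each library). With at least 10 exon-exon reads it was -0.0487, and for exon levels of 0.1 to 1, 1 to 10 and 10 and over it was -0.88, -0.704 and -1.02. With at least 50 exon reads it was -0.167 over all genes and -0.482, -0.701 and -1.02 in those windows. The correlation with other genes lay between 0.800 and 0.909 over other reads and sets of genes, centring on each sex and single libraries left out; it was 0.749 without male replicates 4 and 1 together. Calls between the sexes, 0 in each of 4 edgeR tests, stayed 0 with each library left out. Without a filter they were 1 on exon reads (Zbtb20; 0.375% of those tested, beside 0.185% of all genes), 4 on intron reads (1.48% beside 0.23%) and 1 on intron against exon reads (Gphn; 0.376% beside 0.0984%), and with DESeq2 2 on exon reads. The replicate number as a block gave 1 call on gene reads (Foxp2; 0.37% beside 0.259% of all genes), 4 on exon reads (Edil3, Foxp2, Slc24a3 and Zbtb20; 2.05% beside 0.58%), 5 on intron reads (Cdh13, Cntnap5b, Foxp2, Rgs6 and Slc24a3; 1.86% beside 0.358%) and 0 on the ratio (beside 0.0342%), where limma-voom was used; paired by that number, the difference in intron share had an exact sign-flip permutation p of 0.875. Of 5 replicate numbers, 1 and 5 correlated best with their own number, and the labels state no pairing. For single named genes 430 alternatives kept direction and call, 12 gained a call and 8 values of the density ratio moved with total reads, none changing the sex direction; Gm20388 went from 3.83 to -6.79. Depth limits genes with few exon reads: their shares rest on single reads.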
